A study of Mus musculus with 31 samples.

Results

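A set of 9 libraries of fibroblasts from mouse hearts, grown on flat substrates of stated stiffness, was set against 3 libraries grown in standard flat culture, labelled 2D. The members were chosen by their labels alone: all 9 libraries whose labels give a stiffness (2D-0.5kPa, 2D-8kPa or 2D-64kPa), of 29 RNA libraries and 31 samples in the series. Each stiffness had 3 libraries. The whole series asks how the arrangement in which cardiac fibroblasts are cultured bears on their transcripts and chromatin, and the comparison here asks how cells on a defined stiffness differ from cells in the ordinary flat format. Which differences were present at each stiffness and against each 2D library taken alone was also examined.

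All groups came from cardiac fibroblasts of C57Bl/6 mice aged 8 to 12 weeks, seeded soon after isolation, with no treatment named. The substrates had a stiffness of 0.5, 8 or 64 kPa, with 3 libraries each, and the 2D group they were set against had 3 libraries. A further group, 2D-5days (3 libraries, day 5 in the label), was used in 1 comparison. The sources used here do not give the make of the substrates, the time on them, the stiffness of the 2D surface, or the number of mice or isolations behind each library. The p-values therefore measure the spread between libraries, which may be technical. A primary culture of this kind is not a pure cell type, and in RNA from a whole culture fewer cells of a type and less RNA per cell cannot be told apart.

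Cardiac fibroblasts make and remodel the collagen network of the heart. On a stiff flat surface they spread, form large focal adhesions and contractile bundles of actin, and tend to take on the features of myofibroblasts, whose classical marker is smooth muscle actin (Acta2). Several relays are known to link the surface to transcription. Actin polymerisation releases the MRTF co-activators of serum response factor (SRF), tension lets YAP and TAZ enter the nucleus, where they act through TEAD factors, and transforming growth factor beta (TGF-beta) acts through SMAD factors. NF-kappaB drives the inflammatory genes of the same cells.

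The deposited table held raw counts of reads per gene, and levels below are CPM, read counts scaled to the library's total, which are comparable between libraries for a gene but not between genes of different length. The total of gene counts was 9053061 to 16227198 in the substrate libraries and 12289359 to 28330718 in the 2D libraries. Differences were tested with edgeR's quasi-likelihood test and Benjamini-Hochberg adjustment over 14036 genes, and genes with an adjusted p below 0.05 were called. Log2 fold changes are of substrates over 2D and come with a standard error (SE).

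The libraries differed in ways other than the surface. Libraries numbered 3 at every stiffness lay together and apart from libraries 1 and 2: within a stiffness, the SD over genes of the log2 difference was 0.323 to 0.396 between libraries 1 and 2, and 0.641 to 0.722 between either of them and library 3. The 2D libraries had the same split, with 0.343 between libraries 1 and 2 and 0.750 to 0.760 with library 3. Across the groups, 2D library 3 lay nearer to the substrate libraries numbered 3 (0.618 to 0.641) than to 2D libraries 1 and 2. Substrate libraries 1 and 2 lay at 0.791 to 0.883 from 2D libraries 1 and 2 and at 0.78 to 0.81 from 2D library 3. Reads of Xist, which is transcribed from the inactive X chromosome of female cells, numbered 1 to 7 in the substrate libraries and 4780 to 6954 in the 2D libraries. Reads of the Y-linked genes Ddx3y, Kdm5d, Eif2s3y and Uty, summed, numbered 1306 to 2935 in the substrate libraries, against 3, 7 and 2488 in the 2D libraries. Reads of sex-linked genes thus differed with the group, and the part of the cells' sex in any difference below cannot be told apart from that of the surface. Reads that did not align uniquely made up 17.8% to 28.4% in substrate libraries and 14.1% to 16.0% in 2D libraries.

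**Figure D1:**
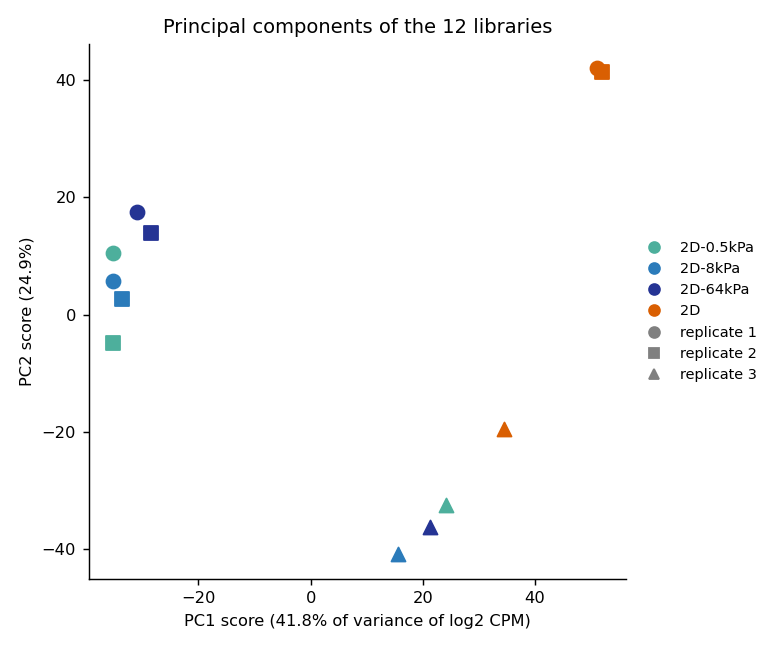
Principal components of log2 CPM for the 12 libraries, with PC1 (41.8% of variance) across and PC2 (24.9%) up. Colour gives the group and shape the replicate number. Substrate libraries 1 and 2 lie at the left, substrate libraries 3 lie at the lower right near 2D library 3, and 2D libraries 1 and 2 lie together at the upper right, while the stiffnesses are not separated.

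The label was checked against markers. All 13 fibroblast markers examined were expressed, with a summed level of 35768 to 47174 CPM in substrate libraries and 63462, 59573 and 35739 CPM in 2D libraries 1, 2 and 3. Of 20 macrophage markers, 0 were called higher and 1 lower, and their sum was 486 to 3185 CPM in substrate libraries (486 to 841 CPM in the libraries numbered 3), against 1605, 1691 and 1844 CPM in 2D. Endothelial markers summed to 551 to 713 CPM on the substrates, against 745 to 831 CPM in 2D, with 3 of 18 called lower. Pericyte and smooth muscle markers summed to 424 to 649 CPM on the substrates, against 791, 720 and 381 CPM in 2D, with 2 of 11 called lower. Epicardial markers summed to 226 to 350 CPM on the substrates, against 218 to 224 CPM in 2D, with 6 of 12 called lower. Cardiomyocyte markers summed to 5.09 to 19.9 CPM on the substrates and to 18.0 to 31.7 CPM in 2D. The part of these cells in the results was not tested.

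When the 9 substrate libraries were set against the 3 2D libraries, 29 of 33 contractile genes were called lower and 20 of 30 cytokine and chemokine genes were called higher. In all, 1359 genes were called higher on the substrates (9.68% of those tested) and 1749 lower (12.5%), with a median log2 fold change of -0.04 over all genes. Scaling by library totals alone moved this split to 1809 higher and 1161 lower. The count of calls rested much on the 2D libraries 1 and 2: 1870 genes were called without 2D library 1 and 1730 without 2D library 2, against 3108 with all.

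By stiffness, 815 genes were called higher (5.81%) and 793 lower (5.65%) on 0.5 kPa. On 8 kPa 815 were called higher (5.81%) and 905 lower (6.45%), and on 64 kPa 700 were called higher (4.99%) and 887 lower (6.32%). With library totals alone these splits were 1176 higher and 514 lower on 0.5 kPa, 1064 and 628 on 8 kPa, and 1004 and 570 on 64 kPa. Leaving out 2D library 1 or 2, or library 1 or 2 of the substrate itself, lowered these counts of calls to between 529 and 954. The 3 comparisons share the 2D libraries, so they are not independent of each other.

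Against single 2D libraries, each assumed to vary like the other groups, fewer genes were called. All 9 substrate libraries gave 375 genes higher (2.67%) and 592 lower (4.22%) against 2D library 1, and 483 higher (3.44%) and 680 lower (4.84%) against library 2. Against library 3 they gave 331 higher (2.36%) and 524 lower (3.73%). With library totals alone the splits were 530 higher of 981 called against library 1, 597 of 1090 against library 2 and 404 of 748 against library 3. Of genes called in the pooled comparison, the direction against 2D library 3 alone was turned for 10 of 1359 rises and 148 of 1749 falls. Against 2D library 1 alone it was turned for 0 rises and 10 falls, and against library 2 for 1 rise and 7 falls.

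A gene was said to hold when it was called in the pooled comparison, at each of the 3 stiffnesses and against each of the 3 2D libraries alone, all in the same direction, with no overlap between the 9 substrate and the 3 2D libraries. Of all genes, 1027 (7.32%) were higher in every substrate library than in every 2D library and 1241 (8.84%) lower. There were 57 held rises (0.406%) and 98 held falls (0.698%), of which 27 and 46 were 2-fold or more. With library totals alone there were 81 held rises and 59 held falls, and 116 genes held with both scalings. When only the 12 libraries were fitted there were 66 held rises and 57 held falls, and 60 genes held in both fits. The step that removed most was the call against each 2D library, which 57 of 1359 rises and 99 of 1749 falls passed, while 495 rises and 555 falls were called at each stiffness. Without 2D library 3 the held genes numbered 769, without 2D-0.5kPa library 3 they numbered 287, and without 2D-64kPa library 3 they numbered 255. Xist itself was among the held falls, and 2 held rises and 8 held falls lie on the X chromosome.

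**Figure D2:**
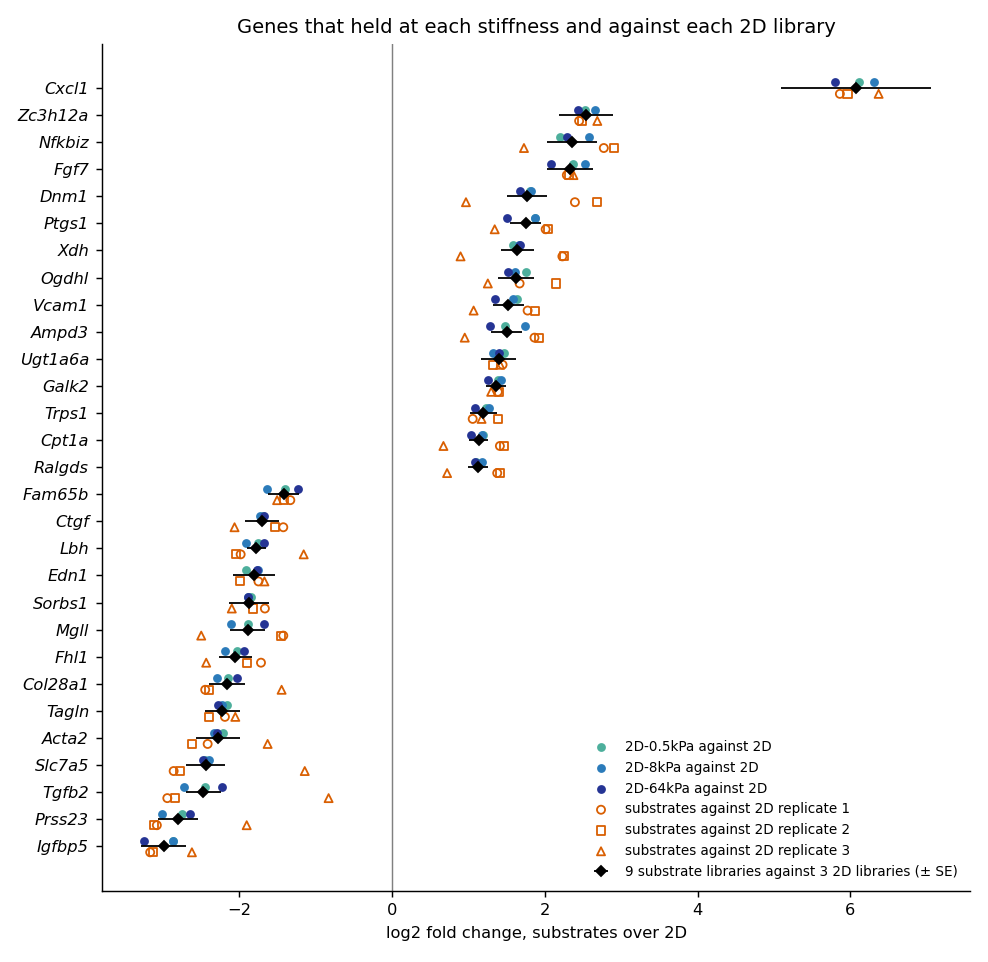
Log2 fold change (substrates over 2D, across) of the 15 largest rises and of all but 1 of the 15 largest falls among held genes (down the page). Black diamonds with bars give the pooled estimate ± SE, filled circles the estimate at each stiffness and open orange symbols the estimate against each 2D library. The filled circles lie close together for most genes, and the open triangles (2D library 3) lie nearer to 0 than the other open symbols for Tgfb2, Slc7a5, Dnm1 and Xdh.

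Of held genes whose mean log2 CPM was 3 or more, the largest fall was that of Igfbp5, a secreted binding protein of insulin-like growth factors (mm10 chr1:72858065-72874865). Its level was 5.17, 10.9 and 19.5 CPM (lowest, median, highest of 9) on the substrates, against 101, 98.5 and 69.2 CPM in 2D libraries 1, 2 and 3. Every substrate library was far below every 2D library, and the fall was -2.99 ± 0.29 (SE, edgeR adjusted p = 9.11e-07). Prss23, a secreted serine protease, fell by 2.80 on the log2 scale, to 53.9 to 154 CPM on the substrates, against 740, 759 and 328 CPM in 2D. Lbh, a transcriptional cofactor of limb and heart development, lay at 171 to 233 CPM on the substrates, against 803, 835 and 454 CPM in 2D, a fall of -1.78 ± 0.12 (edgeR adjusted p = 5.17e-09). In all 3 genes 2D library 3 was the 2D library nearest to the substrates.

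Of 33 contractile genes tested, 0 were called higher and 29 lower, where 12.5% of all genes were called lower. Their median log2 fold change was -0.78, against -0.04 over all genes, and 9 were held: Acta2, Tagln, Fhl2, Vcl, Cnn2, Tpm1, Actn1, Flna and Tpm4. At single stiffnesses 26 were called lower on 0.5 kPa (5.65% of all genes), 26 on 8 kPa (6.45%) and 28 on 64 kPa (6.32%). Against single 2D libraries 22, 22 and 12 were called lower, where 4.22%, 4.84% and 3.73% of all genes were, and 1 was called higher against library 3. In 23 of them every substrate library lay below every 2D library, as in 8.84% of all genes.

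Acta2, smooth muscle actin (mm10 chr19:34240336-34255585), had 444, 446 and 1105 CPM in 2D-0.5kPa libraries 1, 2 and 3. It had 412, 427 and 988 CPM on 8 kPa and 441, 366 and 1070 CPM on 64 kPa, against 3368, 3876 and 1955 CPM in 2D. Every substrate library was below every 2D library, but the libraries numbered 3 stood apart in both: they were the highest on the substrates and the lowest in 2D. Acta2 fell by 2.28 ± 0.29 on the log2 scale (edgeR adjusted p = 1.79e-05), and the log2 fold changes were -2.21, -2.33 and -2.29 on 0.5, 8 and 64 kPa. Against 2D libraries 1, 2 and 3 alone they were -2.41, -2.62 and -1.63.

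Tagln, the actin-binding protein transgelin, showed the same pattern. It lay at 170, 221 and 461 CPM (lowest, median, highest) on the substrates, against 1302, 1508 and 1185 CPM in 2D, a fall of -2.22 ± 0.23 (edgeR adjusted p = 1.49e-06). Vcl, the focal adhesion protein vinculin that ties integrins to actin, had 243, 262 and 462 CPM on the substrates, against 702, 694 and 746 CPM in 2D (-1.18 ± 0.18, edgeR adjusted p = 1.14e-04). Fhl2, a LIM-domain adaptor, had 68.8, 76.9 and 133 CPM, against 224, 252 and 166 CPM in 2D (-1.25 ± 0.17, edgeR adjusted p = 4.15e-05). None of these 3 genes overlapped between the groups, and in each the substrate libraries numbered 3 were the highest of the 9.

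Actin cross-linkers and tropomyosins held as well. Flna (filamin A, on the X chromosome) had a log2 fold change of -0.69 ± 0.11, Actn1 (alpha-actinin) of -0.78 ± 0.12, Tpm1 and Tpm4 (tropomyosins) of -0.93 ± 0.09 and -0.60 ± 0.09, and Cnn2 (a calponin) of -0.99 ± 0.11. For Actn1 the estimates against 2D libraries 1, 2 and 3 were -0.84, -0.75 and -0.76. Some called falls did not hold. Cnn1, a smooth muscle calponin named here after its values were seen, had 2.01, 3.27 and 4.60 CPM on the substrates, against 40.8, 57.0 and 4.14 CPM in 2D, so that 2D library 3 lay among the substrate libraries. Myl9, a regulatory myosin light chain, had 39.8, 58.7 and 109 CPM, against 256, 287 and 106 CPM in 2D, a called fall of -1.67 ± 0.26 (edgeR adjusted p = 1.74e-04) in which 2D library 3 again overlapped the substrates.

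**Figure D3:**
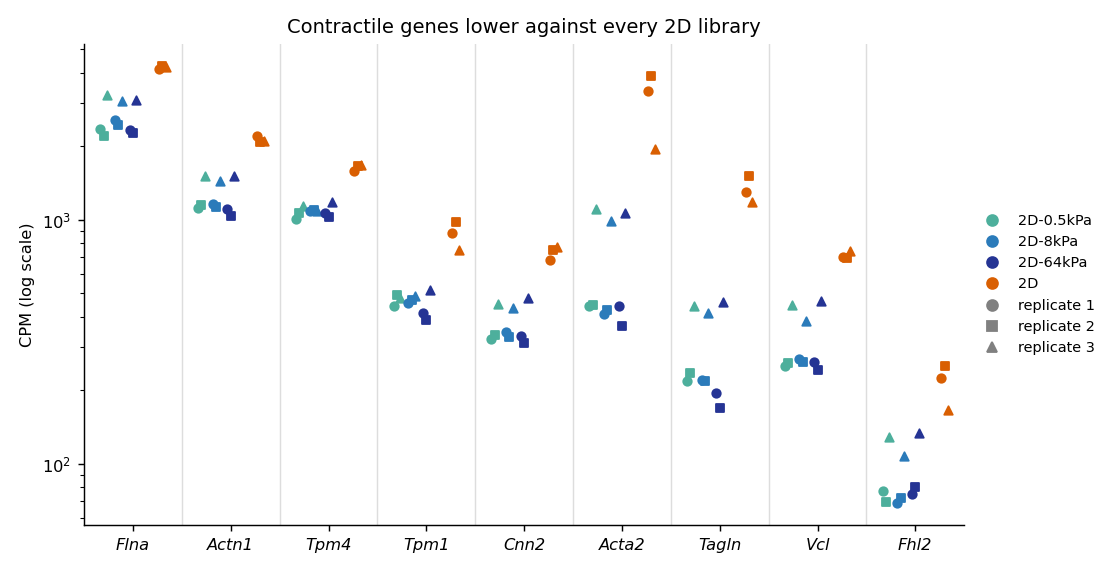
Level in CPM (log scale, up) of the 9 held contractile genes in each library, with substrates at the left of each panel and 2D at the right. Colour gives the group and shape the replicate number. Every substrate point lies below every 2D point of the same gene, and triangles (replicate 3) are the highest substrate points for Acta2, Tagln, Vcl and Fhl2.

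The promoters of the held contractile genes are shown because these genes moved together and SRF binds the CArG box. RefSeq (GRCm38.p6) held 9 windows, from 250 bases before to 50 after a transcript's start, for 8 of the 9 genes. A CArG box, searched on both strands, lay in 4 windows of 3 genes, where 1.63% of all 32851 windows held it. Only exact matches to CCWWWWWWGG, where W is A or T, were counted. The window of Acta2 held no exact match, but it holds ccctatatgg and ccttgtttgg, each different by 1 letter. Other motifs lay in the same 9 windows. GGAATG, a motif of TEAD factors, lay in 4 windows of 4 genes (Acta2, Flna, Tpm1 and Vcl), against 14.7% of all windows. A kappaB motif lay in 2 windows of 2 genes (Flna and Vcl), against 8.46% of all windows. A match is a description of letters, not of binding. The 250 bases before the start are given for Cnn2 (chr10:79988350-79988599, plus strand), Vcl (chr14:20929148-20929397, plus strand) and 1 start of Fhl2 (chr1:43163962-43164211, minus strand), with the CArG box in capitals.
Cnn2: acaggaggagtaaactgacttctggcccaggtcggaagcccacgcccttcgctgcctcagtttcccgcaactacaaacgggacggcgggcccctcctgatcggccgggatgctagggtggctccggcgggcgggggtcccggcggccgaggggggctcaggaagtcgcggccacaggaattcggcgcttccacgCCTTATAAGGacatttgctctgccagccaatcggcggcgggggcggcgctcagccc
Vcl: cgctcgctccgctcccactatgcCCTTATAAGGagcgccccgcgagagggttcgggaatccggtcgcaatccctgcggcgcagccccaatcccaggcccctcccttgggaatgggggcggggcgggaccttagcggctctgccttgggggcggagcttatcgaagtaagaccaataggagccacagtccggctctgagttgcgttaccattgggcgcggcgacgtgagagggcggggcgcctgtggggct
Fhl2: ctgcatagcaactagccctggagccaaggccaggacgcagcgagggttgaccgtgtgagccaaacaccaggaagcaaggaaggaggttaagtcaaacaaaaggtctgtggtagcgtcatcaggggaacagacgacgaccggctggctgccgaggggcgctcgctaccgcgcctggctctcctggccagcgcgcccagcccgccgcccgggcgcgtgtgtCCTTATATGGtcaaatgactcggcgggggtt
The box begins 56 bases before the start in Cnn2, 227 in Vcl and 31 in Fhl2. Cnn2 and Vcl carry the same 10 letters.

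Of the factors that act on these genes, Srf itself held: it had 52.5, 66.3 and 84.2 CPM on the substrates, against 116, 114 and 139 CPM in 2D, a fall of -0.84 ± 0.14 (edgeR adjusted p = 2.26e-04). No substrate library reached a 2D library. Of 13 SRF and MRTF regulators, 0 were called higher and 6 lower, but 1 was lower with library totals alone. Of 29 integrins and focal adhesion genes, 1 was called higher and 8 lower. Ilk (integrin-linked kinase) and Fermt2 (kindlin-2, an integrin activator) held, with log2 fold changes of -0.70 ± 0.09 and -0.84 ± 0.07. Fermt2 lay at 147 to 174 CPM in all 9 substrate libraries, against 273, 276 and 295 CPM in 2D, and here the libraries numbered 3 did not stand apart.

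Of 23 YAP and TAZ targets tested, 0 were called higher and 9 lower, with a median of -0.40. Ctgf, a matricellular protein (mm10 chr10:24595442-24598683), had 726, 960 and 1698 CPM on the substrates, against 2891, 3111 and 4500 CPM in 2D. The groups did not overlap, and Ctgf held with a fall of -1.70 ± 0.22 (edgeR adjusted p = 2.19e-05). Lats2, a kinase of the Hippo pathway that is itself a YAP target, held with -0.63 ± 0.10. Ankrd1, a muscle ankyrin repeat protein, was called lower (-1.05 ± 0.34, edgeR adjusted p = 0.029) but had 258, 359 and 869 CPM on the substrates, against 670, 808 and 1561 CPM in 2D, and the groups overlapped. Cyr61 had 636, 670 and 1003 CPM, against 1327, 1469 and 1336 CPM in 2D. Its groups did not overlap, yet it was not called (-0.86 ± 0.41, edgeR adjusted p = 0.137).

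Among TGF-beta ligands, Tgfb2 and Tgfb3 held and Tgfb1 was not called. Tgfb2 (mm10 chr1:186622787-186709697) had 22.2, 30.7 and 35.7 CPM on the substrates, against 223, 209 and 51.7 CPM in 2D, a fall of -2.47 ± 0.22 (edgeR adjusted p = 3.24e-07). The size of that fall depended on the 2D library, at -2.94, -2.84 and -0.83 against libraries 1, 2 and 3. Tgfb3 had 54.6 to 74.6 CPM on the substrates, against 163, 155 and 91.0 CPM in 2D (-1.10 ± 0.11). Tgfb1 had 89.2, 113 and 120 CPM, against 93.2, 80.0 and 138 CPM in 2D (0.10 ± 0.13, edgeR adjusted p = 0.623). Over the 24 TGF-beta genes, 1 was called higher and 4 lower, and the median of -0.04 was that of all genes.

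Of 43 growth factor, endothelin and angiotensin genes, 4 were called higher and 12 lower, where 9.68% of all genes were called higher and 12.5% lower, so that the share called higher was near that of all genes. Of these genes 5 held. Edn1, the precursor of the vasoconstrictor endothelin-1, had 5.35, 6.96 and 15.9 CPM on the substrates, against 30.8, 36.4 and 29.1 CPM in 2D (-1.81 ± 0.28, edgeR adjusted p = 1.28e-04). Gdf6, a BMP family ligand, fell by 1.31 and Bdnf, a neurotrophin, by 1.04 on the log2 scale. Fgf7, a growth factor that acts on epithelial cells, went the other way, with 31.8, 71.4 and 110 CPM on the substrates, against 14.5, 14.2 and 13.6 CPM in 2D (2.33 ± 0.30, edgeR adjusted p = 2.28e-05). All 9 substrate libraries were above all 2D libraries in Fgf7. Hey2, a transcription factor downstream of Notch, held with 0.134, 0.329 and 1.69 CPM on the substrates, against 9.32, 7.02 and 3.89 CPM in 2D.

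Matrix genes were called in both directions, and few held. Of 23 collagen chains, 1 was called higher and 12 lower, with a median of -0.62, but 0 were called lower against 2D library 3 alone, against 10 and 9 for libraries 1 and 2. Col1a1, the main chain of type I collagen, had 5558, 8753 and 10518 CPM on the substrates, against 16863, 15990 and 5337 CPM in 2D. Col3a1 had 1175, 5026 and 7001 CPM, against 8705, 8220 and 2631 CPM in 2D. The level of 2D library 3 lay below every substrate library in Col1a1 and within their range in Col3a1, and neither gene was called (edgeR adjusted p = 0.0911 and 0.424). Postn, the matricellular protein periostin, was called lower (-1.04 ± 0.22, edgeR adjusted p = 0.00195), although 2D library 3 with 407 CPM lay within the substrate range of 272 to 468 CPM. Col28a1, a minor collagen, held at 6.76, 10.0 and 13.7 CPM on the substrates, against 54.6, 52.9 and 27.3 CPM in 2D (-2.16 ± 0.24, edgeR adjusted p = 3.91e-06). Fn1, Lox and Mmp2 were not called.

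Matrix proteases and their inhibitors were divided, with 8 of 35 called higher and 7 lower. Mmp3, stromelysin-1, had 71.1, 967 and 1574 CPM on the substrates, against 53.7, 49.9 and 182 CPM in 2D, and was called higher (3.17 ± 0.92, edgeR adjusted p = 0.0166). Timp1, an inhibitor of such proteases, had 1298, 2251 and 3048 CPM, against 574, 629 and 1789 CPM in 2D (1.08 ± 0.35, edgeR adjusted p = 0.0301). In both genes 2D library 3 overlapped the substrates, and when libraries numbered 3 were compared with each other the log2 fold change was -0.72 for Mmp3 and -0.33 for Timp1.

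Of 30 cytokine and chemokine genes, 20 were called higher on the substrates and 0 lower, where 9.68% of all genes were called higher. Their median log2 fold change was 1.89. By stiffness 18 were called higher on 0.5 kPa (5.81% of all genes), 17 on 8 kPa (5.81%) and 11 on 64 kPa (4.99%), and the difference between stiffnesses passed in no gene. Against 2D libraries 1, 2 and 3 alone 4, 5 and 4 were called higher, where 2.67%, 3.44% and 2.36% of all genes were, and 4 held. With libraries 1 and 2 of a group summed, 6 were called higher, where 337 of 14503 genes were. Cxcl1, a chemokine that attracts neutrophils (mm10 chr5:90891245-90893121), had 329, 498 and 85.4 CPM in 2D-0.5kPa libraries 1, 2 and 3. It had 424, 423 and 194 CPM on 8 kPa and 319, 278 and 136 CPM on 64 kPa, against 5.07, 4.73 and 3.57 CPM in 2D. Every substrate library was far above every 2D library, with the libraries numbered 3 the lowest of the substrates, and the rise was 6.07 ± 0.98 (edgeR adjusted p = 2.07e-04). It was 5.86, 5.96 and 6.37 against the 3 2D libraries.

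Regulators and neighbours of this response also held. Nfkbiz, a nuclear partner of NF-kappaB, had 130, 195 and 267 CPM on the substrates, against 27.5, 25.1 and 56.7 CPM in 2D (2.35 ± 0.32, edgeR adjusted p = 4.56e-05). Zc3h12a, a ribonuclease that degrades cytokine transcripts, had 46.2, 110 and 140 CPM, against 18.7, 18.2 and 15.9 CPM in 2D (2.54 ± 0.35, edgeR adjusted p = 5.0e-05). The groups did not overlap in either gene. Vcam1, an adhesion molecule for leukocytes, rose by 1.52 ± 0.20, and Ptgs1, the cyclooxygenase COX-1, by 1.75 ± 0.21. Ccl5, a chemokine, had 3.06 to 17.6 CPM on the substrates, against 0, 0.158 and 1.64 CPM in 2D.

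Ccl2 and Il6 were called higher but did not hold. Ccl2, a chemokine for monocytes, had 211, 583 and 792 CPM on the substrates, against 43.0, 49.8 and 72.0 CPM in 2D, with no overlap (3.23 ± 0.71, edgeR adjusted p = 0.00254). Il6, an interleukin, had 26.0, 146 and 263 CPM, against 25.6, 24.0 and 6.60 CPM in 2D (2.88 ± 0.76, edgeR adjusted p = 0.00978). The groups did not overlap, but the lowest substrate library was barely above 2D library 1. With only the libraries numbered 3 on both sides, 0 cytokine genes were called and their median was 1.01; with only libraries 1 and 2 on both sides 18 were called higher and the median was 2.29. With only libraries 1 and 2 on both sides, 2094 of 14031 genes were called higher. Macrophages also make cytokines. Their 20 summed markers had 725 to 3185 CPM in substrate libraries 1 and 2 and 486 to 841 CPM in those numbered 3, against 1605 to 1844 CPM in 2D. The substrate libraries thus lay on both sides of 2D, and the part of macrophages in the cytokine values was not tested. Single markers had log2 fold changes of -5.35 to 1.76, and none of the 20 was at 0 in all 12 libraries. The marker at the low end, and the only one called, was Cx3cr1, a chemokine receptor, with 0.196 to 0.738 CPM on the substrates, against 24.4, 23.0 and 11.7 CPM in 2D.

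**Figure D4:**
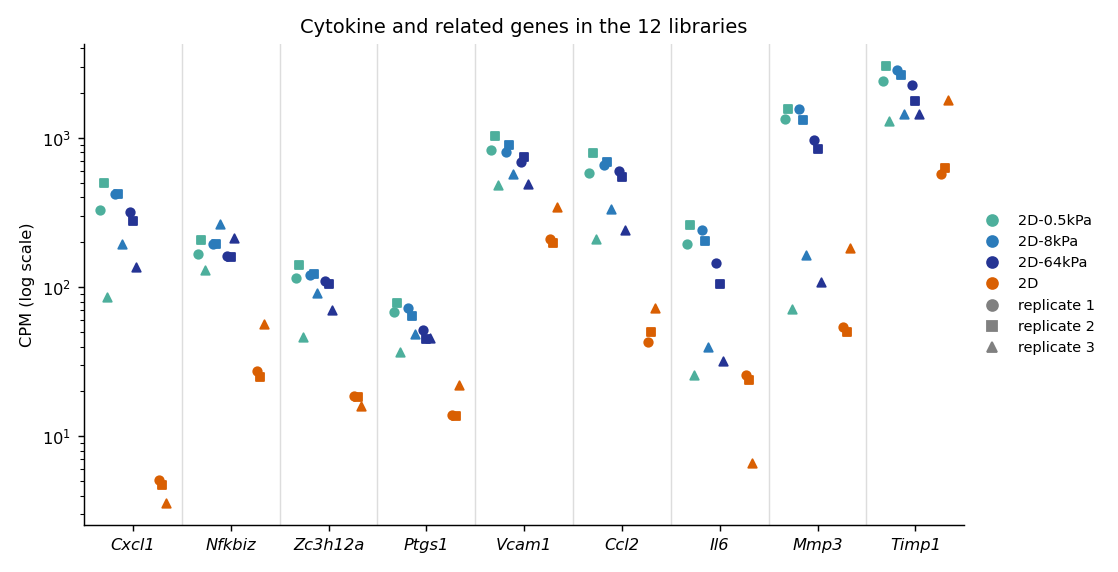
Level in CPM (log scale, up) of cytokine, adhesion and protease genes in each library, with substrates at the left of each panel and 2D at the right. The first 5 genes hold, with every substrate point above every 2D point. For Mmp3 and Timp1 the 2D triangle (library 3) lies above the 3 substrate triangles.

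The promoter of Cxcl1 is shown as that of the largest held rise. A kappaB motif, searched on both strands, lay in 8.46% of the 32851 RefSeq windows. Cxcl1 had 2 overlapping matches, beginning 71 and 70 bases before the start, and they are in capitals in the 250 bases before the start (GRCm38.p6, chr5:90890995-90891244, plus strand).
Cxcl1: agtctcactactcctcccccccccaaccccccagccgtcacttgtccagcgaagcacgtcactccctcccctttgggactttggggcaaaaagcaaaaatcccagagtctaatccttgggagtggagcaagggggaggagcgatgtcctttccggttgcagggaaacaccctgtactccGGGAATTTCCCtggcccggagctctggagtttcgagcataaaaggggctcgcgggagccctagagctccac
Ptgs1 was the only other held cytokine gene with a window in the table, and its window held no kappaB match.

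Several metabolic genes held as rises. Xdh, which makes uric acid from purines, had 271, 352 and 403 CPM on the substrates, against 72.5, 71.6 and 183 CPM in 2D (1.64 ± 0.22, edgeR adjusted p = 2.28e-05). Ampd3, an AMP deaminase, rose by 1.50 ± 0.20, and Cpt1a, the entry enzyme of mitochondrial fatty acid oxidation, by 1.13 ± 0.12. Cpt1a had 213 to 271 CPM in the 9 substrate libraries, against 87.7, 84.7 and 146 CPM in 2D, without overlap. Galk2, a sugar kinase, rose by 1.36 ± 0.13 and differed little between the 2D libraries (1.39, 1.40 and 1.30). Ugt1a6a, a glucuronosyltransferase, also held, but it shares exons with the other Ugt1a genes and its count is uncertain.

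Of 27 glycolysis and hypoxia genes, 15 were called higher and 0 lower, where 9.68% of all genes were called higher. Their median was 0.60, and 0 held. When only the 12 libraries were fitted, 8 were called higher, where 1283 of 13002 genes were. The libraries numbered 3 differed from the pooled result: with only the substrate libraries numbered 3, the median was 0.07. Bnip3, a mitochondrial protein induced by low oxygen and named here after its values were seen, had 130 to 163 CPM in substrate libraries 1 and 2 and 26.8 to 34.1 CPM in those numbered 3, against 21.5, 15.5 and 21.2 CPM in 2D. Of 29 targets of the antioxidant factor NRF2, 16 were called higher and 1 lower, with a median of 0.59, and 0 held. By stiffness 12 were called higher on 0.5 kPa, 15 on 8 kPa and 5 on 64 kPa. With only the substrate libraries numbered 3 the median of the NRF2 targets was 0.46, and with only libraries numbered 3 on both sides it was 0.35. With libraries 1 and 2 of a group summed, 8 were called higher. Of all genes 9.68% were called higher in the pooled comparison, 5.81%, 5.81% and 4.99% on 0.5, 8 and 64 kPa, and 337 of 14503 in the summed fit. Nqo1, a quinone reductase of the NRF2 list and also picked after its values were seen, had 151, 292 and 410 CPM on the substrates. In 2D it had 85.4, 91.0 and 145 CPM.

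Of 24 cholesterol synthesis genes, 0 were called higher and 14 lower, with a median of -0.72, and 0 were called against 2D library 3 alone. With only libraries numbered 3 on both sides the median was 0.42, with 0 called. Idi1, an enzyme of isoprenoid synthesis chosen after its values were seen, had 16.3, 23.5 and 45.3 CPM on the substrates, against 88.4, 86.1 and 27.8 CPM in 2D. The unfolded protein and integrated stress response list had 1 of 32 called higher and 15 lower, and 1 gene of the list was called lower against 2D library 3 alone. That gene list contains Slc7a5, the large neutral amino acid transporter, which held: 33.5, 40.0 and 63.6 CPM on the substrates, against 321, 302 and 97.6 CPM in 2D (-2.44 ± 0.25, edgeR adjusted p = 1.49e-06).

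Genes called in the pooled comparison that turned direction against a single 2D library were also named. They were picked for that turn, so it is no further sign of the split. Trib3, a pseudokinase of the stress response, had 4.69, 8.65 and 12.3 CPM on the substrates, against 60.6, 62.1 and 2.28 CPM in 2D. It was called lower in the pooled comparison (-2.23 ± 0.49, edgeR adjusted p = 0.00273), yet its log2 fold change against 2D library 3 alone was 1.95. Aldh1l2, a mitochondrial folate enzyme, and Chac1, which degrades glutathione, had pooled values of -2.13 and -1.82 and values of 0.34 and 0.30 against 2D library 3. Of the rises, Igf2bp2, an RNA-binding protein, had 60.8 to 69.9 CPM on the substrates, against 22.8 CPM in 2D library 1 and 66.6 CPM in 2D library 3, which lay among the substrates.

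Cell cycle genes showed no call in either direction in the pooled comparison (0 of 42, median -0.36, and 0 with DESeq2), but the substrate libraries were not alike. When only the 12 libraries were fitted with the replicate number as a block, 13 were called lower, where 2212 of 13002 genes were. Mki67, a marker of dividing cells, had 184 to 229 CPM in substrate libraries 1 and 2 and 487 to 584 CPM in those numbered 3, against 423, 387 and 344 CPM in 2D. The substrate libraries thus lay on both sides of all 2D libraries. With only substrate libraries 1 and 2, 27 of the 42 genes were called lower and 0 higher, with a median of -0.745. In that fit 2519 of 14068 genes were called lower and 2099 higher. With only those numbered 3 the median of the cell cycle genes was 0.195. Interferon response genes also changed with the libraries used: with only libraries 1 and 2 on both sides, 18 of 32 were called higher and 1 lower, and with only those numbered 3 on both sides, 0 were called higher and 6 lower. Of all genes, 2094 of 14031 were called higher and 2312 lower with only libraries 1 and 2 on both sides. Over all libraries 1 interferon response gene was called higher and 3 lower.

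Contractile genes had a negative median with either set of substrate libraries. With only libraries 1 and 2 of the substrates 30 of 33 genes were called lower (median -0.91), where 2519 of 14068 genes were. With only those numbered 3 the median was -0.58. When libraries numbered 3 on both sides were compared, 3 were called lower and 0 higher, with a median of -0.36, where 64 of 14182 genes were called higher and 114 lower. With only libraries 1 and 2 on both sides, 31 were called lower, with a median of -0.90, where 2312 of 14031 genes were. With libraries 1 and 2 of a group summed, 20 contractile genes were called lower, where 531 of 14503 genes were called lower and 337 higher. In that fit 3 of 23 collagen chains and 0 of 24 cholesterol synthesis genes were called lower, and 3 of 27 glycolysis and hypoxia genes were called higher.

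**Figure D5:**
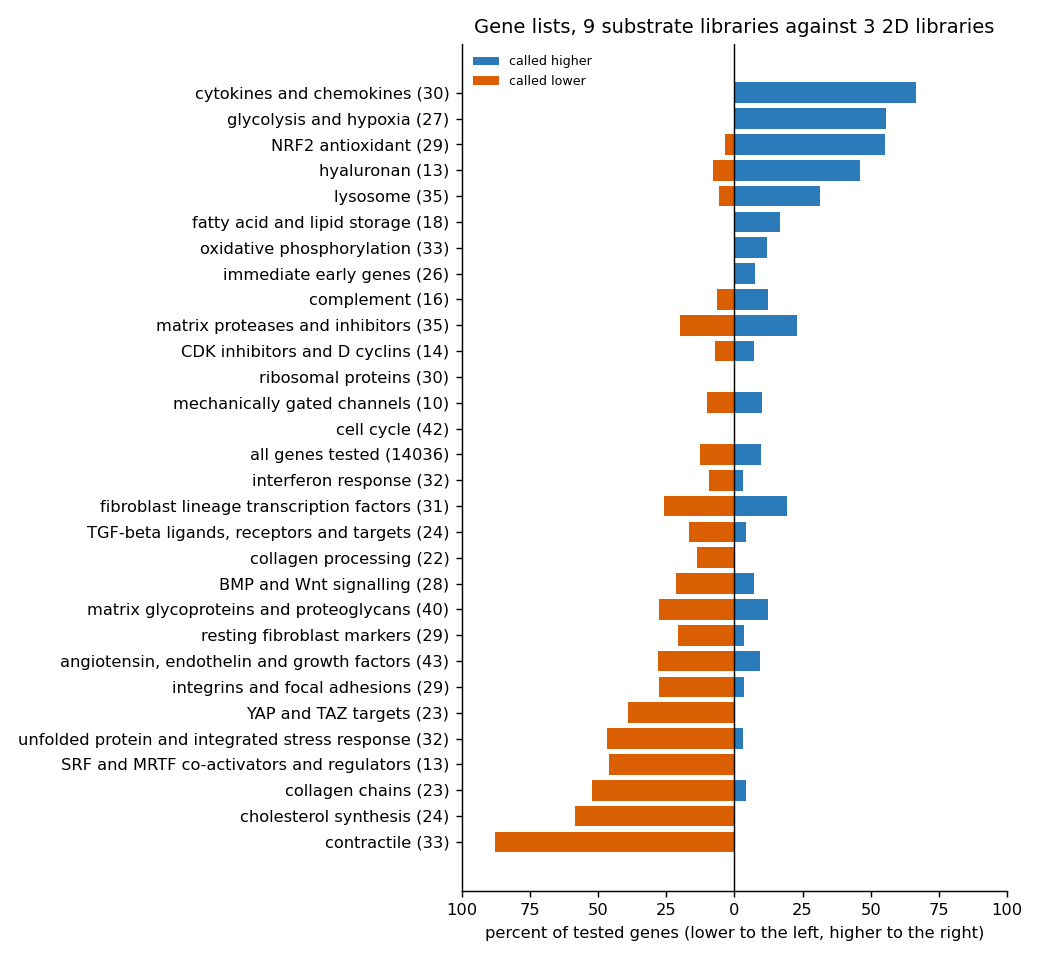
Percent of the tested genes of each list called higher (to the right) or lower (to the left) on the 9 substrate libraries against the 3 2D libraries, with the number tested in brackets. The contractile list has the greatest share called lower and the cytokine list the greatest share called higher, and the bar of all genes tested gives the background of 9.68% higher and 12.5% lower.

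The remaining pathway lists are given by their counts, where 9.68% of all genes were called higher and 12.5% lower. Matrix glycoproteins and proteoglycans had 5 of 40 called higher and 11 lower. Resting fibroblast markers had 1 of 29 higher and 6 lower, and collagen processing 0 of 22 and 3. Oxidative phosphorylation had 4 of 33 higher and 0 lower, and fatty acid and lipid storage 3 of 18 and 0. Immediate early genes had 2 of 26 higher and 0 lower, and complement 2 of 16 and 1. CDK inhibitors and D cyclins had 1 of 14 higher and 1 lower, and mechanically gated channels 1 of 10 and 1. Hyaluronan genes had 6 of 13 called higher and 1 lower, and lysosome genes 11 of 35 higher and 2 lower, but 0 held in either list. With libraries 1 and 2 of a group summed, 2 hyaluronan genes and 1 lysosome gene were called higher, where 337 of 14503 genes were. The medians of the hyaluronan and lysosome lists were 0.46 and 0.22. With only libraries numbered 3 on both sides they were 0.075 and -0.13. Ribosomal protein genes had 0 of 30 called in either direction, with a median of 0.06. BMP and Wnt genes had 2 of 28 called higher and 6 lower, and fibroblast lineage transcription factors 6 of 31 higher and 8 lower. Pdgfra, a receptor that marks cardiac fibroblasts, was called higher (0.86 ± 0.17, edgeR adjusted p = 0.00118), but with 444 to 654 CPM on the substrates it overlapped 2D library 3 at 465 CPM. Tcf21, a transcription factor of resting fibroblasts, was not called (-0.45 ± 0.25, edgeR adjusted p = 0.215).

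Between the 3 stiffnesses, 0 genes were called (0%) by edgeR's quasi-likelihood test, with 134 at an unadjusted p under 0.05. The count was also 0 when only the 12 libraries were fitted, with and without the replicate number as a block. Without the block, the split by library number counts as spread between libraries, and the block took in the 2D libraries too. A count of 0 therefore does not show that the stiffnesses are alike. Over the held genes the 3 stiffness estimates spanned a median of 0.14 on the log2 scale and at most 1.96, and the median span over all genes was likewise 0.14.

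The falls and rises relative to 2D were also set against 2D-5days, another flat culture, which differs from the substrates in more than its surface. There 3411 genes were called higher on the substrates (24.3%) and 3678 lower (26.2%), and with library totals alone 4492 higher and 2732 lower, a scaling that moved the median of all genes by more than 0.1 on the log2 scale: it was -0.01 with TMM factors and 0.13 without. Of 33 contractile genes, 9 were called higher there and 5 lower, with a median of 0.10. Acta2 had 399 to 419 CPM in 2D-5days, which lies within the range of the substrates (0.63 ± 0.33, edgeR adjusted p = 0.116). Tagln was called higher on the substrates than in 2D-5days (0.73 ± 0.26, edgeR adjusted p = 0.0244). Vcl and Fhl2 were lower on the substrates than in 2D-5days as well, with -0.80 ± 0.18 and -1.63 ± 0.17 (edgeR adjusted p = 9.39e-04 and 9.25e-08).

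Of the 30 cytokine genes, 20 were called higher on the substrates than in 2D-5days and 1 lower. Cxcl1 had 6.43 to 7.23 CPM in 2D-5days, near its level in 2D (5.41 ± 0.96, edgeR adjusted p = 7.71e-05). All 42 cell cycle genes were called higher on the substrates than in 2D-5days, with a median of 2.58. Cholesterol synthesis genes were called lower in 24 of 24, with a median of -2.16. Igfbp5 had 181 to 576 CPM in 2D-5days, above both its range on the substrates and its level in 2D (-5.27 ± 0.30, edgeR adjusted p = 1.73e-11).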

How the data were processed

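The authors deposited raw counts of reads per gene in 1 table. The submitters' processing notes name TopHat, HTSeq, Bowtie and MACS2, without version or role, and the mm10 build; no source used here gives the annotation or strandedness. Of 24421 genes, 14036 passed filterByExpr; summary lines of the counting were left out. All 29 RNA libraries were fitted with 1 mean per group in edgeR 4.0.16 (R 4.3.3, limma 3.58.1): TMM scaling, robust quasi-likelihood test, Benjamini-Hochberg adjustment. CPM used effective totals and log2 CPM a prior count of 2. The test recovered set changes in simulated counts. These held no split by library number, so they do not bear on how the test behaves with that split. The members, gene lists and settings were chosen with earlier results of these data known. Named genes were the 15 largest held rises and falls at a mean log2 CPM of at least 3, up to 4 held members per list (the 2 most abundant where none was called), a fixed panel, and 4 genes each way that turned direction; others are marked. A gene that the rule named is not reported here. Deviations from group means correlated weakly between substrate and 2D libraries of the same number (-0.033 to 0.182). Between stiffnesses, libraries of the same number correlated at 0.191 to 0.753, and those numbered 3 at 0.662 to 0.753. The main fit used no pairing. No 2 libraries agreed within sampling noise. Alternatives are given in the closing section.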

Additional observations from a re-analysis of the deposited data

Results flagged for a closer look

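The level of Tgfb1 in 2D-0.5kPa library 3 lay far from the other 8 substrate libraries. It was 89.2 CPM, the nearest library had 106 CPM, and the gap made up 0.577 of the range of log2 CPM over the 9 libraries. Chance flags about 1 in 20 groups in this way. The check covered the 70 genes named by rule, and this value was the only one flagged.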

How the results depend on the processing

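The pooled count of 3108 called genes became 868 with libraries 1 and 2 of a group summed, 1029 with only substrate libraries numbered 3 and 178 with only libraries numbered 3 on both sides, and 1730 to 3506 with each library left out in turn. For 0.5 kPa (1608) it was 115 with libraries summed and 625 to 2193 with a library left out, for 8 kPa (1720) 222 and 719 to 2185, and for 64 kPa (1587) 107 and 529 to 2242, with 964 when only the 12 libraries were fitted. The 155 held genes became 62 with libraries summed, 290 with DESeq2, 888 with substrate libraries 1 and 2, 20 with those numbered 3 and 107 to 769 with a library left out; all but 1 of the 155 were held without 2D library 3 (154). When only the 12 libraries were fitted, 123 genes held, and only 60 of them were among the 155. Settings by library number were chosen after seeing the data, and a lone library was assumed to vary like the other groups. With the replicate number as a block, 4290 genes were called in the pooled comparison and 830 held. Called genes then numbered 2772 on 0.5 kPa, 2943 on 8 kPa, 2723 on 64 kPa and 0 between stiffnesses. The labels give substrates and 2D only a number in common. With only libraries numbered 3, log2 fold changes turned for Igf2bp2 (-0.013), Tpp1 (-0.026), Uap1l1 (-0.14), Trib3 (1.46), Aldh1l2 (0.13), D8Ertd82e (0.78), Chac1 (0.61), Postn (0.17), Timp1 (-0.33) and Mmp3 (-0.72). Igf2bp2, Tpp1, Uap1l1, Trib3, Aldh1l2, D8Ertd82e and Chac1 had been picked for turning against a single 2D library. Their turn in a fit whose only 2D library is number 3 was nearly fixed by that choice. The choice of Postn, Timp1 and Mmp3 did not use such a turn. The cause of the changes between settings was not tested, beyond the fewer libraries in such fits.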
